A study of Homo sapiens with 6 samples.

Results

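The genes described here are 39 DNA replication and E2F target genes, out of 20033 protein-coding genes in the annotation. They were chosen by name: the activating E2F factors, the origin licensing proteins, the MCM helicase and the factors that activate it, the sliding clamp and its loader, the replicative polymerases and primase, the Okazaki fragment enzymes, the enzymes of nucleotide supply and 3 chromatin factors that work behind the fork. TIMELESS, which is not an activating factor, was grouped with those of the helicase. No measured value enters the rule. MM.1S is a human multiple myeloma cell line, a malignancy of plasma cells. Its chromatin was profiled by Omni-ATAC, in which a transposase cuts accessible DNA, after 72 h with 120 nM CB-6644 (3 libraries) or with the solvent DMSO (3 libraries). CB-6644 blocks ATP hydrolysis by RUVBL1 and RUVBL2, a pair of ATPases found in several chromatin remodelling complexes. The cells were sorted by flow cytometry for live cells before the assay, so cells that died during treatment are not represented. Only 1 cell line is covered.

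E2F factors bind promoters of genes needed to enter and pass S phase, and the retinoblastoma protein holds them in check until cyclin-dependent kinases phosphorylate it. In G1, ORC, CDC6 and CDT1 load the MCM helicase at origins. At the start of S phase, CDC45 and GINS turn the loaded MCM ring into a working helicase, and polymerases, clamp and loader then copy the strands. An ATAC peak at such a promoter reports that the DNA is accessible. It does not report transcription, and a promoter can stay accessible while its gene is silent.

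The deposited peak lists held 58563 to 71781 peaks on the autosomes, X and Y in the CB-6644 libraries and 65569 to 79020 in the DMSO libraries. The lists give no read totals. Local background was solved from each peak's fold enrichment and p-value. The lowest value of each library was divided by its shortest peak length to give tags per kb. It ran from 3.2 to 7.05 with CB-6644 and from 6.4 to 9.08 with DMSO, lower on average with CB-6644 but overlapping. CB-6644 replicate 2 and DMSO replicate 1 had shortest peaks of 65 and 91 bp, and the other 4 libraries of 131 to 152 bp. These sets are called short-fragment and long-fragment here, because a peak caller's minimum length usually follows its fragment length. The name is inferred from the lists, as no fragment length is given in the labels. The short-fragment libraries also gave higher fold enrichments at the replication promoters, with medians of 32.9 and 30.3 against 20.6 to 23.5 in the others. All 9 plasma cell marker genes looked up (among them SDC1, IRF4 and XBP1) had a promoter peak in all 6 libraries. Among markers of other cell types, 6 had no promoter peak in any library (CD3E, CD2, LYZ, MS4A1, ALB and KRT5), while CD14, PAX5 and HBB had one in all 6.

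Every replication gene had an open promoter with and without CB-6644. A peak within 1000 bp of a transcription start was present in all 6 libraries for 39 of 39 genes, against 66.2% of protein-coding genes. The same was true within 500 bp, and within 1000 bp of the canonical start alone. These peaks were among the strong ones of each list. Ranked by -log10 p within a library, with 100 for the strongest peak, the mean percentile of the promoter region over the 6 libraries had a median of 92.5 across the genes, compared with 87.1 across all promoter regions, and 24 of the 39 lay at 90 or above. Peaks that overlapped between libraries were joined into regions, and where a gene had several promoter regions the one with the highest mean percentile stood for it.

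The strongest was the promoter of CHAF1A, the large subunit of the chromatin assembly factor that deposits histones on new DNA (chr19:4402301-4402827, hg38, mean percentile 99.7). It stood at 99.8, 99.9 and 99.6 in CB-6644 replicates 1 to 3 and at 99.6, 99.8 and 99.3 in the DMSO replicates. The weakest was that of POLE2, an accessory subunit of the leading-strand polymerase (chr14:49687946-49688404, mean percentile 51.2), at 38.5, 47.1 and 49.1 with CB-6644 and 63.4, 61.8 and 47.2 with DMSO. CDT1 (54.8) and RFC3 (61.5) followed from below. By role, the median of the mean percentile was 97.6 for the E2F activators, 96.7 for the MCM subunits and 92.5 for the helicase activation group. It was 89.4 for origin licensing, 88.8 for the clamp and its loader and 80.4 for the polymerases and primase. The MCM genes ranged from 93.1 to 99.3, and the polymerases and primase ran from 51.2 to 93.8.

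**Figure D1:**
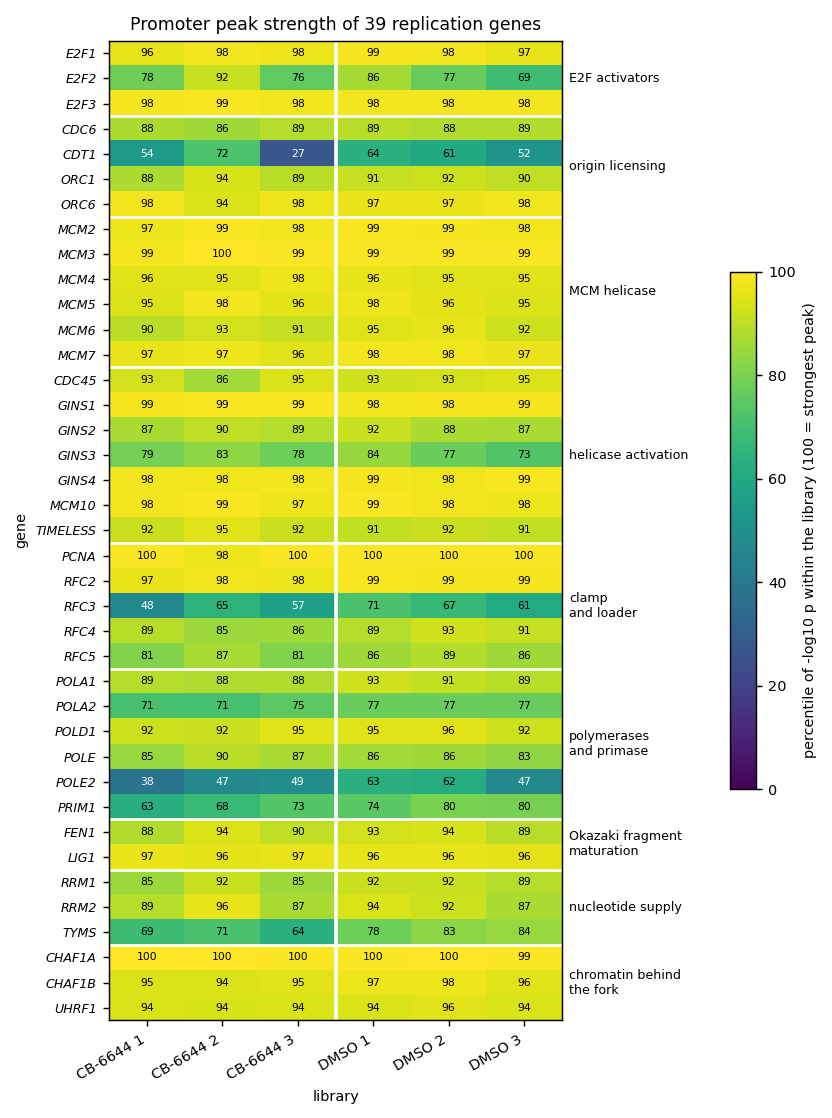
Percentile of -log10 p of the promoter peak within its own library (colour and printed number, 100 = strongest) for 39 replication genes in rows, grouped by role, and 6 libraries in columns. Most cells lie above 85 in both groups, and CDT1, RFC3, POLE2, POLA2, PRIM1 and TYMS form the weaker rows.

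The promoters were also read for short sequence words. RefSeq promoter windows (GRCh38.p14, from 250 bases before to 50 bases after the start) were matched for 36 of the 39 genes, all but MCM4, MCM5 and GINS4. An E2F word was counted where TTTCCCGC, TTTCGCGC, TTTGCCGC or TTTGGCGC occurred on either strand, with overlapping words taken as 1 site. Of the 36 promoters, 21 (58.3%) held at least 1 such site. The share was 5.5% among 10565 matched promoters of genes with a promoter peak in all 6 libraries and 4.49% among all 15345 matched protein-coding promoters. Several sites in 1 promoter were found at 4 of the 36 genes (11.1%), E2F1, MCM3, MCM6 and MCM7, against 0.265% of the promoters with a peak in all 6 libraries. Because the genes were chosen in part as known E2F targets, the choice and the presence of the word are not independent of one another.

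The CCAAT box (CCAAT), bound by NF-Y, was in 61.1% of the replication promoters and in 36.9% of the promoters open in all libraries, and 33.3% against 2.39% held both it and an E2F word. The SP1 word (GGGCGG) was near the level of other open promoters, 72.2% against 69.9%. The CHR word (TTTGAA), found at genes of late cell cycle, was in 2 of the 36 promoters (5.56%, beside 9.48%). Median GC content was 65.5% and 65.3%. A match describes the letters and does not show that a factor was bound.

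**Figure D2:**
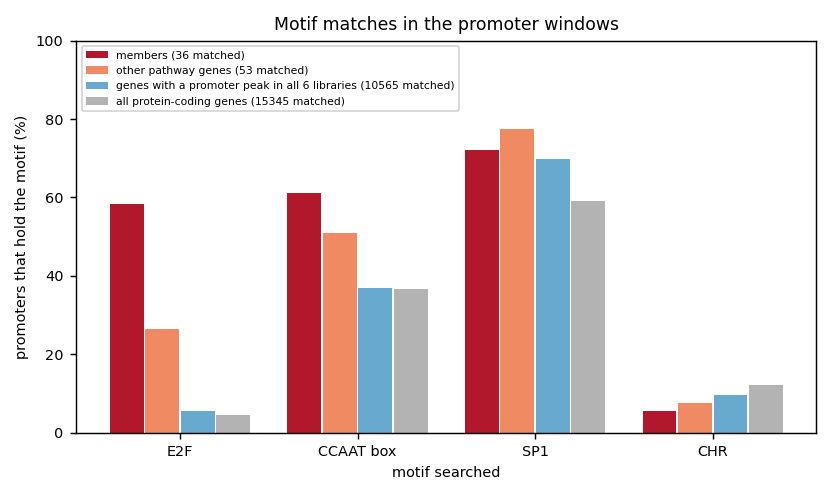
Share of promoter windows (%, y axis, both strands) that hold an E2F word, a CCAAT box, an SP1 word or a CHR word in the 39 replication genes, 66 other pathway genes, genes with a promoter peak in all 6 libraries and all protein-coding genes, with the number of matched windows in the key. The E2F bar stands at 58.3% for the replication genes, 26.4% for the other pathway genes and 5.5% for genes with open promoters.

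The stretches below show these sites in 8 of the genes named further on. They are reference sequence (GRCh38.p14, RefSeq) read 5′ to 3′ on the gene's strand, and capitals mark the E2F word. They lie at chr20:33686386-33686435 (minus strand, E2F1), chr1:23531238-23531305 (minus, E2F2), chr6:20401796-20401863 (plus, E2F3), chr13:33818064-33818131 (plus, RFC3), chr16:88803724-88803788 (plus, CDT1), chr11:65261879-65261946 (plus, POLA2), chr16:85688955-85689015 (minus, GINS2) and chr19:48170421-48170488 (minus, LIG1). All are upstream of the RefSeq start of their gene.
E2F1: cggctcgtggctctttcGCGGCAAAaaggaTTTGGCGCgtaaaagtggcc
E2F2: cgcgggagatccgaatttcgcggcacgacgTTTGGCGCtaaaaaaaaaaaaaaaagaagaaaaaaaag
E2F3: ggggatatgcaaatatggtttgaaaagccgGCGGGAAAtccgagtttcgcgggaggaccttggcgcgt
RFC3: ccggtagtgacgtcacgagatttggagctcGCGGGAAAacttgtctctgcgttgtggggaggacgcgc
CDT1: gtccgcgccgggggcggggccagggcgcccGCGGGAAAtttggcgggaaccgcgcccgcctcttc
POLA2: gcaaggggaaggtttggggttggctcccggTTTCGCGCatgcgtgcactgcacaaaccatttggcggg
GINS2: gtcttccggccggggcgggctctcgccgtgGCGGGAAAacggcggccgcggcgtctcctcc
LIG1: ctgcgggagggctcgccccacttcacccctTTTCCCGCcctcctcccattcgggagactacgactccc

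E2F1 carries its pair of sites in opposite orientations just before its own start, and E2F2, E2F3 and 15 of the replication genes carry a single one. In all, 25 sites were found. Measured at their centre, 21 lay upstream of the start, 16 of these within 100 bp, and 1 lay at the start and 3 beyond it. The accessible peak covered most of them. A peak lay over the site in all 6 libraries for 17 sites and in 5 libraries for 6 more, and the sites of E2F2 and UHRF1 were under a peak in 2 libraries, with the peaks of the other libraries ending beside them. The median distance from site to summit was 109 bp, and 19 of the 25 sites lay within 200 bp of it. The search window sits at the starts of genes that all had open promoters, and other positions in it were not counted. Whether the coverage is particular to these sites was therefore not tested. In RFC3 the site was 21 bp from the summit, and in POLA1 27 bp. CDT1 and GINS1 stood apart, with 917 bp and 16704 bp, because their strongest promoter peak is not the one at the RefSeq start.

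**Figure D3:**
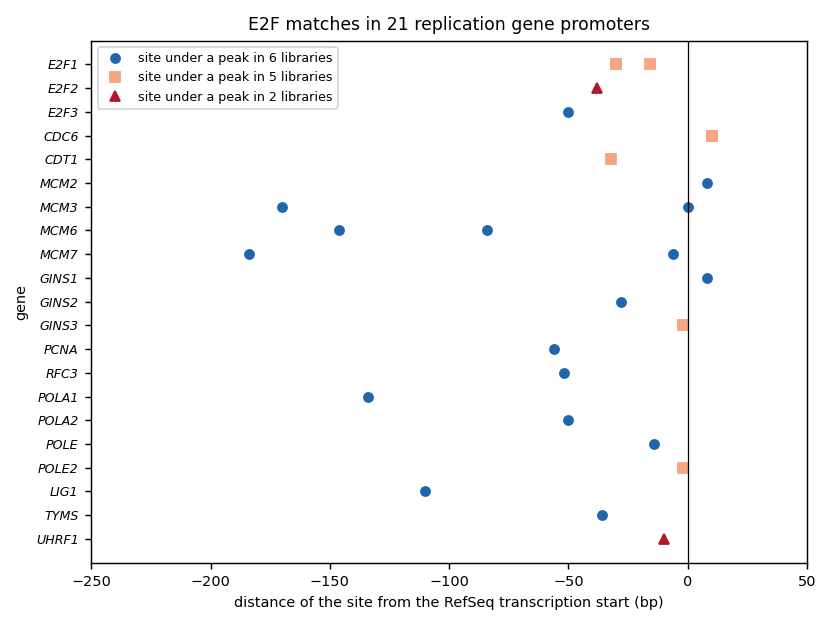
Position of each of 25 E2F sites (x axis, bp from the RefSeq transcription start, negative upstream) in 21 replication gene promoters (y axis), with the marker showing in how many libraries a peak covers the site. Of the sites, 16 lie in the last 100 bp before the start, and 17 of the 25 (circles) are under a peak in all 6 libraries.

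For 36 of the 39 genes the region that stood for the gene covered its canonical start. The exceptions were GINS1, PCNA and CDT1. The strong region of GINS1 (chr20:25389976-25391181) lies 16492 bp from the canonical start, at an alternative start that it shares with ABHD12. The region at the canonical start of this GINS complex subunit had percentiles of 72.6, 72.6 and 76.0 with CB-6644 and 75.9, 75.2 and 78.0 with DMSO, for a log2 difference (CB-6644 minus DMSO, defined further on) of 0.03 (SE 0.13). For PCNA, the sliding clamp, the strong region (chr20:5126342-5127422) is at an upstream start 6384 bp away that neighbours CDS2, and the canonical one was also strong (mean percentile 97.2, log2 difference 0.26, SE 0.19). For CDT1, the region over the canonical start was weak (mean percentile 14.3) and was called in 5 libraries, all but DMSO replicate 3. A further 10 genes have a protein-coding neighbour that starts within 1000 bp in the other direction, for example MCM4 with PRKDC, MCM7 with AP4M1 and PRIM1 with HSD17B6, so their peak cannot be assigned to either gene alone. Such neighbours were found for 19.4% of genes with a promoter peak in all 6 libraries. The summit lay a median of 85 bp from the nearest start of the gene, and within 200 bp for 37 genes.

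CB-6644 left no replication promoter called as different. For each region called in all 6 libraries, the log2 of the peak's fold enrichment over local background was quantile-normalised and tested with limma, with Benjamini-Hochberg adjustment over all 42089 regions. Of the 39 promoter regions 0 were lower and 0 were higher at an adjusted p under 0.05, and the lowest limma adjusted p was 0.34. At an unadjusted p under 0.05 there were 0 lower and 1 higher, beside 1.74% and 3.19% of all promoter regions. At the adjusted threshold calls were rare at all promoters, 0.0523% of 11465 regions lower and 0.0785% higher. So neither the 0 called among 39 nor the 1 higher is a result about these genes. The labels do not say that the replicates are separate cultures, so these p-values measure the spread between the libraries.

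The fitted log2 differences (CB-6644 minus DMSO) were small. They ran from -0.26 to 0.52, with a median of 0.08 across the replication promoters and 0.09 across all promoter regions. A positive value was found for 31 genes and a negative one for 8, and 28.3% of all promoter regions were negative. The median standard error was 0.12. The 95% interval of the difference lay within 0.5 on either side of 0 for 26 genes and within 1 for 37, and its lower bound was above -0.5 for 36. The sign was set by the scale: on ranks of -log10 p (normal scores) 29 of the 39 were negative, as were 69.6% of all promoter regions, and on summit pile-up over background 19 were negative and 20 positive. On each scale the replication promoters moved with promoters as a whole, with medians of -0.087 and -0.08 on normal scores and of 0.001 and -0.011 on pile-up.

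**Figure D4:**
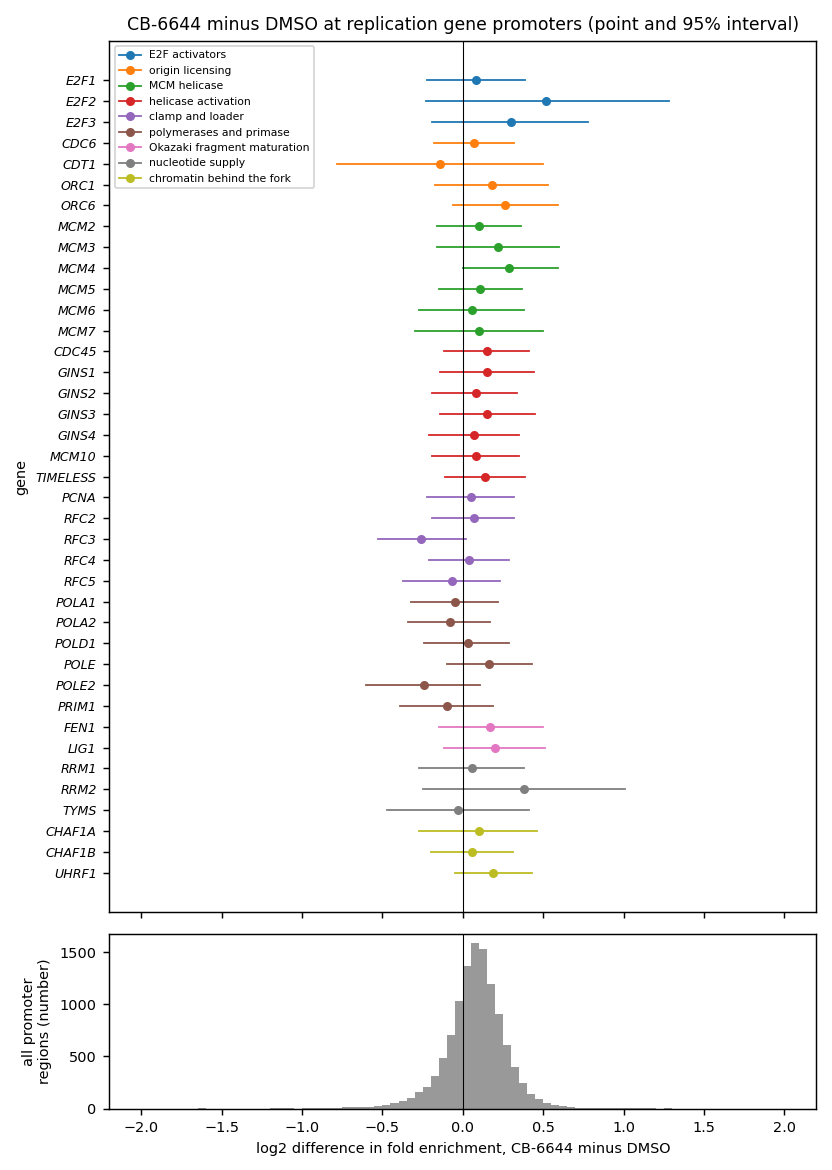
Upper panel, fitted log2 difference in fold enrichment (x axis, CB-6644 minus DMSO) with its 95% interval for the promoter of each of 39 replication genes, coloured by role. Lower panel, the same difference for all 11465 promoter regions (number per bin of 0.05). The points lie between -0.26 (RFC3) and 0.52 (E2F2), and both panels centre just right of 0.

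The activating E2F factors E2F1, E2F2 and E2F3, which drive S-phase genes, all had positive differences, none called. At the E2F1 promoter (chr20:33686296-33686752) the deposited fold enrichments were 22.3, 36.3 and 22.9 with CB-6644 and 33.4, 24.2 and 20.8 with DMSO. The groups overlap, and the high value of each is its short-fragment library. The log2 difference was 0.08 (SE 0.13, limma adjusted p = 0.80), and on summit pile-up over background it was -0.06.

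E2F2 had the largest positive difference of the 39 with all libraries in the fit. Its promoter (chr1:23530883-23531542) had fold enrichments of 11.3, 25.1 and 10.8 with CB-6644 and 16.3, 9.38 and 7.42 with DMSO, and again the high value in each group is the short-fragment library. Within each set the CB-6644 values were the higher, 25.1 against 16.3 in the short-fragment libraries and 11.3 and 10.8 against 9.38 and 7.42 in the long-fragment ones. The log2 difference was 0.52 (SE 0.32, limma adjusted p = 0.52), and 0.22 without CB-6644 replicate 2, below the 0.23 of MCM4 in that fit. With the fragment-length set as a term in the limma fit it was 0.52 with an SE of 0.12 and an adjusted p of 0.045, the only replication promoter called in any fit, when 1.21% of all promoter regions were called higher and 0.506% lower. At the E2F3 promoter (chr6:20401332-20401919) the values were 15.2, 27.4 and 14.1 against 19.3, 14.2 and 13.4, which overlap, and the log2 difference was 0.30 (SE 0.21, limma adjusted p = 0.56), and 0.09 without CB-6644 replicate 2.

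Among the origin licensing genes, ORC6, a subunit of the origin recognition complex, had a log2 difference of 0.26 (SE 0.14). Its fold enrichments were 17.3, 22.6 and 16.6 with CB-6644 and 21.4, 15.2 and 14.4 with DMSO, with overlap. CDT1, which brings the MCM ring to the origin, had a difference of -0.14 (SE 0.27), and its values scattered within both groups, 15.3, 22.1 and 9.42 against 20.2, 17.4 and 14.6. One library decides its sign, since the difference was 0.19 without CB-6644 replicate 3. CDC6 and ORC1, which act with them, were at 0.07 and 0.18.

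All 6 MCM2 to MCM7 promoters had positive differences, from 0.06 (MCM6) to 0.29 (MCM4), but without CB-6644 replicate 2 MCM6 was at -0.04 and MCM7 at -0.03. MCM4 was the gene with an unadjusted p under 0.05 (limma adjusted p = 0.34). Its fold enrichments of 20.3, 29.5 and 22.6 with CB-6644 overlapped those of 26.5, 18.8 and 17.7 with DMSO. The 7 genes of the helicase activation group (MCM10, CDC45, GINS1 to GINS4 and TIMELESS) were as close together, from 0.07 to 0.15. The GINS1 value is that of its alternative start, and its canonical one was at 0.03.

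Of the 8 negative differences, 6 lay with the polymerases, primase and clamp loader. RFC3, a subunit of the loader that opens the PCNA ring, had the lowest value, -0.26 (SE 0.12, limma adjusted p = 0.37). Its promoter (chr13:33817928-33818628) had fold enrichments of 17.5, 19.4 and 20.8 with CB-6644 and 28.3, 24.7 and 21.4 with DMSO. Here every treated library was below every control library as deposited, without scaling between libraries. The share of all promoters with that order on deposited values was not counted. On ranks of fold enrichment it was 5.96%. In percentiles RFC3 stood at 48.0, 64.7 and 57.1 against 71.2, 66.7 and 61.2, and the groups overlapped. RFC2, RFC4, RFC5 and PCNA lay between -0.07 and 0.07. The PCNA value is that of its upstream start, and its canonical one was at 0.26.

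Of the 6 polymerase and primase genes 4 were negative. POLE2 was at -0.24 (SE 0.15), with fold enrichments of 14.5, 13.3 and 18.4 against 22.7, 22.0 and 16.3, which overlap through 1 library of each group. It ran from -0.37 without CB-6644 replicate 3 to -0.14 without CB-6644 replicate 2. PRIM1, the catalytic primase subunit that lays down RNA primers, was at -0.10 (SE 0.12) with values of 15.2, 18.7 and 18.7 against 22.0, 20.2 and 18.6, and at -0.01 without CB-6644 replicate 1. POLA2, the B subunit of the priming polymerase, was at -0.08 (SE 0.11) with 18.2, 20.8 and 20.1 against 27.7, 21.0 and 19.5, and at -0.04 without DMSO replicate 1. POLA1, the catalytic subunit of the same polymerase, was at -0.05, and POLD1 and POLE, catalytic subunits of the lagging- and leading-strand polymerases, were at 0.03 and 0.16.

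The other enzymes gave no call either. RRM2, the regulated subunit of ribonucleotide reductase, was the second highest at 0.38 (SE 0.27), with fold enrichments of 14.1, 28.8 and 12.8 with CB-6644 and 19.7, 12.8 and 10.6 with DMSO. Its spread again follows the short-fragment libraries, and without CB-6644 replicate 2 the difference was 0.13. RRM1, the other subunit, was at 0.06 and TYMS, which makes thymidylate, at -0.03, and both signs turned without CB-6644 replicate 2 (RRM1) or replicate 3 (TYMS), to -0.05 and 0.12. FEN1 and LIG1, which trim and seal Okazaki fragments, were at 0.17 and 0.20. CHAF1A, CHAF1B and UHRF1, which act on histones and DNA methylation behind the fork, were at 0.10, 0.06 and 0.19.

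Ranks within a library allow a comparison without fold values, though lists with more weak peaks push strong peaks up. The promoter percentile was below every DMSO library in every CB-6644 library for 6 genes (RFC2, POLA1, POLA2, PRIM1, TYMS and CHAF1B), above for 2 (GINS1 and TIMELESS), and overlapped for 31. For GINS1 this was the region at its alternative start, and at its canonical start the groups overlapped. Over all promoters the shares were 17.1% and 1.83%, so the 15.4% of replication genes that were lower is near the background, and the higher ones are 2 genes. TYMS showed the widest gap, 68.7, 71.2 and 63.6 with CB-6644 against 77.8, 82.6 and 84.4 with DMSO. PRIM1 stood at 63.0, 67.7 and 73.2 against 74.5, 79.7 and 79.5. Ranked among promoter peaks only, 4 genes were lower (MCM6, RFC2, TYMS and CHAF1B, beside 8.01% of promoters) and 3 higher (GINS1, POLE and TIMELESS, beside 6.54%).

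Around these genes, group-specific regions were few, as they were among all regions. The 39 gene bodies with 20 kb on each side covered 3.29 Mb and held 167 merged regions, 1 to 9 per gene with a median of 4. A peak in all 6 libraries was found at 111 of them (66.5%, against 47.2% of all merged regions), and in a single library at 11 (6.59% against 15.7%). More DMSO than CB-6644 libraries had a peak at 31 regions (18.6% against 32.5% of all regions), and the reverse held at 12 (7.19% against 12.8%). Promoter regions make up 93 of the 167, so these shares compare a promoter-rich set with all regions. Away from promoters the genes were near the background: 33 of 74 distal regions (44.6%) were called in all 6 libraries, against 39.4% of all distal regions.

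Regions called in all 3 libraries of one group and none of the other were few. There were 4 called with DMSO only (2.4%, beside 4.5% of all merged regions) and 1 with CB-6644 only (0.599%, beside 0.586%), and 34 of the 39 genes had neither. Among the 74 distal regions alone, 3 were DMSO-only (4.05%, beside 5.38% of all distal regions). The CB-6644-only region was also distal (1.35%, beside 0.683%). At every region called in one group only, the peaks were weak. An intron of GINS3 held one of the DMSO-only regions (chr16:58338199-58338574), with percentiles of 29.5, 25.4 and 30.5. The CB-6644-only region is in an intron of LIG1 (chr19:48145668-48145899), with percentiles of 2.31, 22.1 and 24.3, near the bottom of the list in 1 library.

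The remaining 3 lie outside the replication genes, in introns of genes next to them. The one near GINS2 is in GSE1, 1.42 kb from a start of that gene (chr16:85659859-85660075, percentiles 43.2, 29.8 and 27.5). The one near CDT1 is in PIEZO1, 0.79 kb from a start (chr16:88784052-88784426, 33.6, 23.6 and 13.6), and that near POLD1 is in MYBPC2, 1.85 kb from a start (chr19:50434745-50434916, 23.7, 8.22 and 19.1). The 101 bases around the summits of these regions held 0 E2F words. The stretches of the 2 regions inside replication genes are printed for that reason, on the plus strand of hg38, at chr16:58338367-58338467 (GINS3) and chr19:48145723-48145823 (LIG1).
GINS3 intron, DMSO only: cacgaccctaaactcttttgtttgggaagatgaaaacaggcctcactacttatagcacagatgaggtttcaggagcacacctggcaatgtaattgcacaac
LIG1 intron, CB-6644 only: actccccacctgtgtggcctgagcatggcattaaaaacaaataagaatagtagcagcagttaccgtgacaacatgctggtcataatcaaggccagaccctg

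Away from promoters, 33 distal regions at these genes were called in all 6 libraries and tested. With limma 0 were lower and 0 higher at an adjusted p under 0.05, beside 0.662% and 0.717% of 27493 distal regions. An unadjusted p under 0.05 was found for 5. The shares of all distal regions under that p, or without overlap between the groups, were not counted. The 5, and the orders of libraries given below, therefore have no background beside them. The median log2 difference was 0.01 and the range -1.20 to 0.85. The lowest and the highest were both in introns of E2F genes.

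The lowest was an intronic region of E2F3, 12.4 kb from the nearest start of that gene (chr6:20416077-20416439). Its fold enrichments were 11.2, 4.97 and 9.60 with CB-6644 and 19.1, 20.7 and 18.0 with DMSO. Every treated library was well below every control library, and the lowest of them was the short-fragment one, CB-6644 replicate 2. In percentiles the peak stood at 21.5, 1.92 and 14.2 with CB-6644 and at 53.5, 54.4 and 47.9 with DMSO. The log2 difference was -1.20 (SE 0.31, 95% interval -1.93 to -0.47), which did not pass in the limma fit (adjusted p = 0.13). It passed in 4 other limma fits, at -1.20 with the fragment-length set as a term (adjusted p = 0.015), -0.84 in the long-fragment libraries (adjusted p = 0.028), -0.77 without CB-6644 replicate 2 (adjusted p = 0.045) and on normal scores of ranks (adjusted p = 0.035). In these fits 5.69%, 3.74%, 1.99% and 8.15% of all distal regions were called lower. It did not pass with any other library left out. Those fits called 0 of all regions, so they cannot tell about this one. A second intronic region of E2F3 nearer its start (7.94 kb from the canonical start) had 15.4, 16.9 and 16.2 against 22.0, 21.1 and 20.6, also without overlap, and a log2 difference of -0.28 (SE 0.13, limma adjusted p = 0.36). It passed on normal scores of ranks (limma adjusted p = 0.041), the fit with the most lower calls. The promoter of the same gene did not share this order, as given above.

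The highest was an intronic region of E2F2, 5.18 kb from its start (chr1:23525853-23526054). It had fold enrichments of 8.03, 18.2 and 7.82 with CB-6644 and 8.39, 5.63 and 4.57 with DMSO, which overlap through the short-fragment DMSO replicate 1. The log2 difference was 0.85 (SE 0.33, limma adjusted p = 0.28), and it passed with the set as a term (adjusted p = 0.032) and in the long-fragment libraries (0.66, limma adjusted p = 0.038), when 4.3% and 2.71% of all distal regions were called higher. It was 0.49 without CB-6644 replicate 2. Summit stretches of both regions are given because they carry the extreme differences, on the plus strand of hg38, at chr6:20416228-20416328 (E2F3) and chr1:23525900-23526000 (E2F2), with 0 E2F words in either.
E2F3 intron: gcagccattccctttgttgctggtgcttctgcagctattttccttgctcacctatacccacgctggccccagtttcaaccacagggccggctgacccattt
E2F2 intron: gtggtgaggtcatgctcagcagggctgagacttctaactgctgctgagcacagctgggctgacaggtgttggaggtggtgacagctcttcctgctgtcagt

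**Figure D5:**
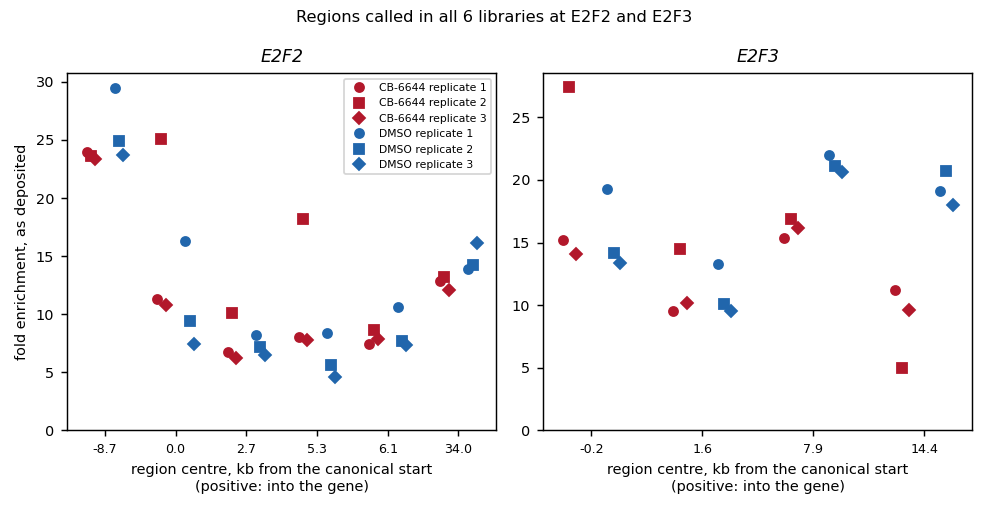
Deposited fold enrichment (y axis) in each library at the regions of E2F2 (left) and E2F3 (right) called in all 6 libraries, placed in order of distance from the canonical start (x axis labels, kb, not to scale). At the E2F3 region 14.4 kb into the gene the CB-6644 libraries sit between 4.97 and 11.2 and the DMSO libraries between 18.0 and 20.7, while at its promoter the groups overlap.

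The other 3 distal regions with an unadjusted p under 0.05 were in introns of POLA1 and in the flank of CDT1. At chrX:24702297-24702764 in POLA1 the fold enrichments were 20.4, 20.8 and 18.0 with CB-6644 and 32.7, 27.5 and 24.1 with DMSO, without overlap, for a log2 difference of -0.43 (SE 0.12, limma adjusted p = 0.14). It passed on normal scores of ranks (limma adjusted p = 0.033), where 8.15% of all distal regions were called lower and 1.84% higher. The second POLA1 region had a difference of -0.36 (SE 0.15), and -0.24 without CB-6644 replicate 2. The region near CDT1 (chr16:88790408-88791066), between it and PIEZO1, was higher in each CB-6644 library, 17.7, 20.9 and 18.2 against 16.2, 16.1 and 11.6, for a difference of 0.51 (SE 0.13, limma adjusted p = 0.12). It passed with the fragment-length set as a term (limma adjusted p = 0.044), beside 4.3% of all distal regions.

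The other genes of the pathway gave the same picture at their promoters. These were 66 genes, among them the repressive E2Fs, the retinoblastoma family, the cyclins E and A2, RPA, the remaining ORC, POLD and POLE subunits and replication stress factors. All 66 had a promoter peak in all 6 libraries. With limma 0 were lower and 0 higher (lowest adjusted p = 0.30), beside 0.0523% and 0.0785% of all promoter regions. At an unadjusted p under 0.05, 0 were lower and 1 higher, beside 1.74% and 3.19% of all promoter regions. Their log2 differences ran from -0.32 to 0.50 with a median of 0.13, and 58 were positive and 7 negative. Over all promoter regions the median was 0.09 and 28.3% were negative. In ranks, 11 of the 66 were below every DMSO library in every CB-6644 library and 0 above, beside 17.1% and 1.83% of all promoters. An E2F word was in 26.4% of the 53 matched promoters, between the 58.3% of the replication genes and the 5.5% of open promoters.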

How the data were processed

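Peak lists of 6 Omni-ATAC libraries (MM.1S, 3 CB-6644 and 3 DMSO) were used, with groups and replicate numbers from the labels. Bowtie2 2.4.2 (alignment to hg38) and MACS3 3.0 (a peak list for each library) are the authors' tools, with versions from the submitters' processing notes. The authors tested read counts with edgeR, and the lists hold no counts. The deposited fold enrichment is the ratio of summit pile-up to local background, with the peak caller's pseudocount added to both. The alternative named summit pile-up over background is the same ratio without that pseudocount. The deposited -log10 p and -log10 q values are those of the authors' peak caller. None of the deposited values is scaled between libraries, and deeper libraries give larger -log10 p at equal accessibility.

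The genes and lists were chosen with earlier results of these data known. GENCODE release 44 gave the starts. Peaks were merged at an overlap of 1 bp, and a region took the values of its strongest peak in each library. Log2 fold enrichment of regions called in all 6 libraries was quantile-normalised and tested two-sided with limma 3.58.1 (R 4.3.3), with Benjamini-Hochberg adjustment and a threshold of 0.05. No further pseudocount was added. With 3 against 3 libraries an exact permutation test cannot go below p = 0.1, so none was made. Regions without a peak in every library were not tested, which leaves out any that closed fully. Distal regions lie over 1000 bp from protein-coding starts. Named with values were the E2F activators, genes with a group-only region, the 5 highest and 5 lowest differences, and the strongest and weakest promoter; distal regions with an unadjusted p under 0.05, RRM1, TYMS and other role mates were added after their values were seen. The result of 1 cell type marker is not reported here. The replicate numbers were not taken as pairs. Deviations from the group mean correlated positively between libraries of the same fragment-length set (0.253 to 0.572) and negatively across the sets (-0.477 to -0.332). Same-numbered libraries correlated positively for replicate 3 only, where both are long-fragment. These correlations therefore cannot tell whether the replicates were paired. Alternatives changed the window, start, flank, peak threshold, libraries, scale, normalisation and covariates. Python 3.11.15, pandas 2.3.3, scipy 1.17.1, matplotlib 3.10.9 and pysam 0.24.0 were used.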

Additional observations from a re-analysis of the deposited data

How the results depend on the processing

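Of 123 alternative values of the main results, 102 stayed close to the reported value (by the count's ratio or 1 SD of the median), and 21 did not. The 102 include counts that could only be 0, from fits that called 0 of all regions. Those were the replicate block, the fit of stronger regions only, and the fits without 1 library, except that without CB-6644 replicate 2. The count of 39 open promoters fell to 32 among the 20000 strongest peaks of each library and was 39 in the other alternatives. DMSO-only regions numbered 1 among the 20000 strongest peaks (1.14%, beside 2.79% of all regions) and 1 with no flank (1.35%, beside 4.5%). There were 9 with a 50 kb flank (2.93%, beside 4.5%) and 7 when called in at least 2 libraries (4.19%, beside 9.05%). The 4 long-fragment libraries gave 8 (5.19%, beside 9.21%), and leaving out each library gave 4 to 6 (beside 5.29% to 6.89%). CB-6644-only regions numbered 2 with a 50 kb flank (0.651%, beside 0.586%). With the fragment-length set as a term 1 promoter was higher (E2F2), 1 distal region lower and 2 higher, beside 5.69% and 4.3% of all distal regions. In the long-fragment libraries 1 distal region was lower and 1 higher (beside 3.74% and 2.71%), and on normal scores 3 of 33 were lower (beside 8.15%). Leaving out each library in turn gave 0 to 1 lower distal regions, the 1 being without CB-6644 replicate 2 (beside 1.99%). The other fits with a library left out called 0 of all distal regions. The median promoter difference was 0.174 on median-centred values, where that of all promoters was 0.152. Genes with lower ranks in every CB-6644 library numbered 2 on ranks of fold enrichment (5.13%, beside 5.96% of all promoters). They numbered 14 in the long-fragment libraries and 7 to 13 with 1 library left out. These counts rose with those of all promoters: 14 genes are 35.9% against 36.2% in the long-fragment libraries, and without CB-6644 replicate 2, 13 genes are 33.3% against 30.6%. Genes with higher ranks numbered 5 in the long-fragment libraries (12.8%, beside 9.02%) and 2 to 4 with 1 left out (beside 2.22% to 6.37%). Without CB-6644 replicate 3, 10 were lower (25.6%, beside 23.7%) and 4 higher (10.3%, beside 3.04%). Without DMSO replicate 3, 12 were lower (30.8%, beside 28.4%). E2F1 was at -0.06 on summit pile-up over background and CDT1 ran from -0.36 (without CB-6644 replicate 2) to 0.19 (without CB-6644 replicate 3). The causes were not tested. A replicate block gave 0 lower and 0 higher promoters and a median of 0.081, but it called 0 of all 42089 regions, so the counts were fixed. Correlations of same-numbered deviations were -0.477, -0.332 and 0.326. Their signs follow the fragment-length sets, so they cannot tell whether the replicates were paired. The numbers were not taken as pairs. An alternative added after seeing the data, the region at the canonical start, gave 0 lower and 0 higher of 38 and a median of 0.09. Normal scores have no median on the log2 scale, and distal regions were not refitted among promoters alone. Read depth is unknown, and 3 libraries per group limit the precision.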
